A study of Mus musculus with 8 samples.

Results

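Tbl1xr1, the gene targeted by the hairpin, and 4 genes for proteins that work with it in the NCoR/SMRT corepressor complex were followed across liver libraries: Tbl1x, Ncor1, Hdac3 and Gps2. The 5 genes were taken by name from the 55401 genes in each table. No measured value was used to pick them, but earlier results of these data were known when they were chosen. The study knocked down Tbl1xr1 in mouse hepatocytes to ask what it does in liver regeneration. C57BL/6J mice received an adeno-associated virus that targets hepatocytes and carries either a control hairpin (shNC) or a hairpin against Tbl1xr1 (shTbl1xr1). Partial hepatectomy, the removal of part of the liver so that the remnant regrows, followed after 4 weeks, and whole liver was taken for RNA sequencing on day 2, with 4 libraries per group. Both groups therefore shared strain, virus, surgery and time, and differed in the hairpin. No animals without virus or without surgery were analysed here, and neither the age nor the sex of the mice is given in the sources used here. The labels do not say whether the libraries of a group come from separate animals, so the p-values describe no more than the spread among these libraries, part of which may be technical.

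The NCoR/SMRT complex switches genes off. Its large scaffold proteins, of which NCOR1 is one, dock on nuclear receptors that lack an activating ligand, and on other repressors, and carry the histone deacetylase HDAC3, which removes acetyl groups from histones and becomes active when bound to the scaffold. TBL1XR1 and its close relative TBL1X are WD40-repeat proteins that sit in the complex beside GPS2, bind histones and take part in the exchange of corepressors for coactivators, and in liver the complex is known for restraining genes of lipid metabolism and of the circadian clock.

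Tbl1xr1 and Tbl1x arose from a shared ancestor, so it matters whether sequencing can tell them apart. Both lie on the plus strand of GRCm38, the assembly that mm10 denotes: Tbl1xr1 (ENSMUSG00000027630.13) on chromosome 3 from 22076652 to 22216594, and Tbl1x (ENSMUSG00000025246.13) on chromosome X from 77511013 to 77662983. Their annotated coding sequences are 1542 and 1581 bases long, for 514 and 527 codons. Of 1539 aligned coding bases, 1187 were identical (77.1%), and the longest identical run was 20 bases. A stretch of 90 coding bases around the boundary of exons 12 and 13 encodes part of the WD40 repeats. It was centred on the longest identical run, so it need not show how the differences are spread elsewhere. It is given 5′ to 3′ as spliced, with the 19 bases at which the genes differ in capitals. The Tbl1xr1 stretch (transcript ENSMUST00000063988.13, coding bases 1085 to 1174) spans chr3:22200627-22203148 and the Tbl1x stretch (ENSMUST00000088217.11, coding bases 1124 to 1213) spans chrX:77652801-77653265, introns included.
Tbl1xr1: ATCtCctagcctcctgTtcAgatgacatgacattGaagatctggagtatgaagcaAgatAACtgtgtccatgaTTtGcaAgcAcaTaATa
Tbl1x: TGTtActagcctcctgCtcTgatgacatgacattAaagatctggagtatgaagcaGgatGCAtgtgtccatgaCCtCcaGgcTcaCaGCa
No window of 50 bases was shared between the annotated transcripts of the 2 genes. Of such windows, 18 of 9107 in Tbl1xr1 (0.198%) and 0 of 7237 in Tbl1x also occurred in another gene. The expected counts of all 5 genes were whole numbers (within 0.005) in 8 of 8 libraries, as happens when no fragment is split between genes. This also held for Ncor1 and Gps2, which share 1.52% and 2.75% of their windows with other genes. Whole counts therefore cannot show by themselves that the paralogs were told apart.

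The libraries were not alike. Those of shNC held 25811763 to 27537235 counts, while shTbl1xr1 1 and 2, called the shallow libraries here, held 10895508 and 10728583, and shTbl1xr1 3 and 4, called the deeper ones, held 26976205 and 36720879. The share of counts from the mitochondrial genome was 11.3% and 14.8% in the shallow libraries and 4.52% to 7.34% in the other 6. Levels of the 5 genes are therefore given per library, and their differences also without the shallow libraries where that changes them. Levels are given as CPM, the count of a gene scaled to a common library total. All 8 hepatocyte markers on a list that includes Alb and Apoa1 were detected in both groups, with a summed level of 53638 to 70331 CPM in shNC and 51741 to 83874 in shTbl1xr1. The virus targets hepatocytes, whereas whole liver also holds macrophages, stellate cells, endothelial cells and others. In the shallow libraries the summed levels of 10 macrophage markers (283 and 304 CPM), 8 stellate cell markers (128 and 114) and 8 endothelial markers (168 and 151) lay below the shNC ranges of 541 to 873, 247 to 476 and 254 to 290. In the deeper libraries the macrophage sums, 624 and 665 CPM, lay within the shNC range, the stellate sums were 567 and 285, and the endothelial sums were 302 and 277. The summed cholangiocyte markers had 31.8 to 118 CPM in shNC and 237 CPM in shTbl1xr1 3, and the summed neutrophil markers 3.75 to 9.14 CPM and 16.1 CPM there. No marker of these lists was at 0 in every library of a group. Their part in the values of the corepressor genes was not tested, and in whole tissue fewer cells of a type and less RNA per cell cannot be told apart.

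Tbl1xr1 was lower in every shTbl1xr1 library than in any shNC library, and by very unequal amounts. Its counts were 759, 1098, 1014 and 1016 in shNC 1 to 4 and 19, 15, 287 and 642 in shTbl1xr1 1 to 4. In CPM, scaled between libraries by the trimmed mean of M-values (TMM), the shNC libraries had 27.2, 35.9, 33.7 and 34.6 and the shTbl1xr1 libraries had 2.38, 2.07, 9.24 and 15.9. The shallow libraries thus kept 7.24% and 6.31% of the shNC mean, shTbl1xr1 3 kept 28.1% and shTbl1xr1 4 kept 48.5%. Counting error alone, as a 95% Poisson interval, leaves the shallow values between 1.43 and 3.71 CPM and between 1.16 and 3.42 CPM, under the levels of the deeper pair. The means were 32.8 ± 3.84 and 7.40 ± 6.57 CPM (SD, n = 4 each), and the SD in shTbl1xr1 was close to the size of its mean.

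The fitted log2 fold change of Tbl1xr1 was -2.07 (SE 0.54, 95% interval -3.28 to -0.85), with an adjusted p of 0.290 in edgeR's quasi-likelihood test with Benjamini-Hochberg adjustment. It did not pass the threshold of 0.05, which 7 of the 13908 genes tested passed (0.0503%), 6 of them higher (0.0431%) and 1 lower (0.00719%). Its unadjusted p, 0.00364, was the 173rd smallest. The exact two-sided permutation test over libraries gave p = 0.0286, the smallest that 4 libraries against 4 can give. This test was run for each of the 5 genes without adjustment. Non-overlapping groups were also seen in 1008 of all genes tested (7.25%), 469 of them lower in shTbl1xr1 (3.37%). The spread among the treated libraries moved with their depth, whose part in it was not tested. Without the shallow libraries the log2 fold change was -1.38 (adjusted p = 0.143, in a fit that called 0.0478% of genes), and with the shallow libraries alone against shNC it was -3.88 (adjusted p = 6.62e-05), in a fit that called 42.6% of genes.

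The deposited TPM values, which are scaled by transcript length as well as by library and so allow genes to be compared, gave Tbl1xr1 values of 4.93, 12.7, 10 and 10.35 in shNC 1 to 4 and 0.19, 0.15, 1.81 and 3.50 in shTbl1xr1 1 to 4. The groups were again apart (9.49 ± 3.27 against 1.41 ± 1.59, SD, n = 4 each), as in 6.39% of the genes tested, 5.72% with lower values in shTbl1xr1. As a position among the genes tested, Tbl1xr1 had a higher TPM than 44.8% to 62.9% of them in shNC, and than 10.5%, 9.55%, 22.3% and 33.4% of them in shTbl1xr1 1 to 4. Each treated library thus placed Tbl1xr1 lower among the genes than any control did.

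The length that the authors' tables give for Tbl1xr1 is the mean over its transcripts weighted by their estimated abundance, and it also varied. It was 6677, 3885, 4854 and 4644 bases in shNC 1 to 4 and 8237, 8237, 7081 and 6324 bases in shTbl1xr1 1 to 4. The value of 8237 equals the length of its longest annotated transcript, ENSMUST00000193734.5, to which all fragments of the shallow libraries were thus assigned. The groups overlapped, since shNC 1 exceeded shTbl1xr1 4, and the exact permutation test gave p = 0.0571. Among tested genes with several lengths, 2.59% had groups that did not overlap in length. With 19 and 15 fragments in the shallow libraries, this mix of transcripts rests on little data there, and it enters the TPM of Tbl1xr1 in every library.

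Tbl1x, the paralog, did not pass the threshold, but had its higher values in the libraries with the hairpin on the CPM scale. Its levels were 38.4, 46.9, 44.1 and 42.4 CPM in shNC 1 to 4 and 52.3, 49.7, 64.1 and 65.9 CPM in shTbl1xr1 1 to 4. The groups did not overlap (42.9 ± 3.55 against 58.0 ± 8.16 CPM, SD, n = 4 each), as for 3.88% of all genes tested in this direction. The deeper pair had the highest values, although Tbl1xr1 had been reduced least in those libraries. The log2 fold change was 0.44 (SE 0.15, 95% interval 0.10 to 0.77), with an adjusted p of 0.382 by edgeR with Benjamini-Hochberg adjustment, an unadjusted p of 0.0166, and an exact permutation p of 0.0286. An unadjusted edgeR p below 0.05 was found for 11.6% of all genes tested, 7.9% higher and 3.71% lower. Without the shallow libraries the log2 fold change was 0.60 (adjusted p = 0.200), and with them alone it was 0.25 (adjusted p = 0.132).

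The difference in Tbl1x depended on the scale. Its TPM was 9.01, 12.2, 12.2 and 11.2 in shNC 1 to 4 and 6.70, 5.59, 17.3 and 17.7 in shTbl1xr1 1 to 4, so that the shallow libraries lay below every shNC library and the deeper ones above. On this scale the means were 11.2 ± 1.50 and 11.8 ± 6.58 (SD, n = 4 each; exact permutation p = 0.857). Scaled by library size alone, its CPM was 41.5 to 52.1 in shNC and 38.4, 33.6, 73.8 and 72.4 in shTbl1xr1 1 to 4, with the same order and with overlap, whereas 8.02% of all genes tested had groups apart on that scale. Only the deeper libraries had more Tbl1x than every shNC library on the TMM, library-size and TPM scales alike.

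Within a library, the proportion of the 2 paralogs does not depend on scaling between libraries. Tbl1xr1 made up 41.5%, 43.3%, 43.3% and 44.9% of the fragments assigned to either paralog in shNC 1 to 4, a spread of 1.40 percentage points (SD) around a mean of 43.3%. In shTbl1xr1 1 to 4 it made up 4.35%, 4%, 12.6% and 19.5% (mean 10.1%, SD 7.40). For every Tbl1xr1 fragment there were 1.23 to 1.41 Tbl1x fragments in shNC, and 22.0, 24.0, 6.93 and 4.14 in shTbl1xr1 1 to 4. By fragments, the control libraries held the paralogs in a nearly fixed proportion, and each treated library departed from it. By TPM, the Tbl1xr1 share varied more in the controls, at 35.4%, 50.9%, 45.1% and 48.0% in shNC 1 to 4 (SD 6.76). It was 2.76%, 2.61%, 9.47% and 16.5% in shTbl1xr1 1 to 4. Added together, the paralogs had 65.6, 82.7, 77.8 and 77.0 CPM in shNC and 54.7, 51.8, 73.3 and 81.8 CPM in shTbl1xr1. The sums of the shallow libraries were below all shNC sums, while those of the deeper libraries lay within the shNC range (75.8 ± 7.23 against 65.4 ± 14.5 CPM, SD, n = 4 each).

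**Figure D1:**
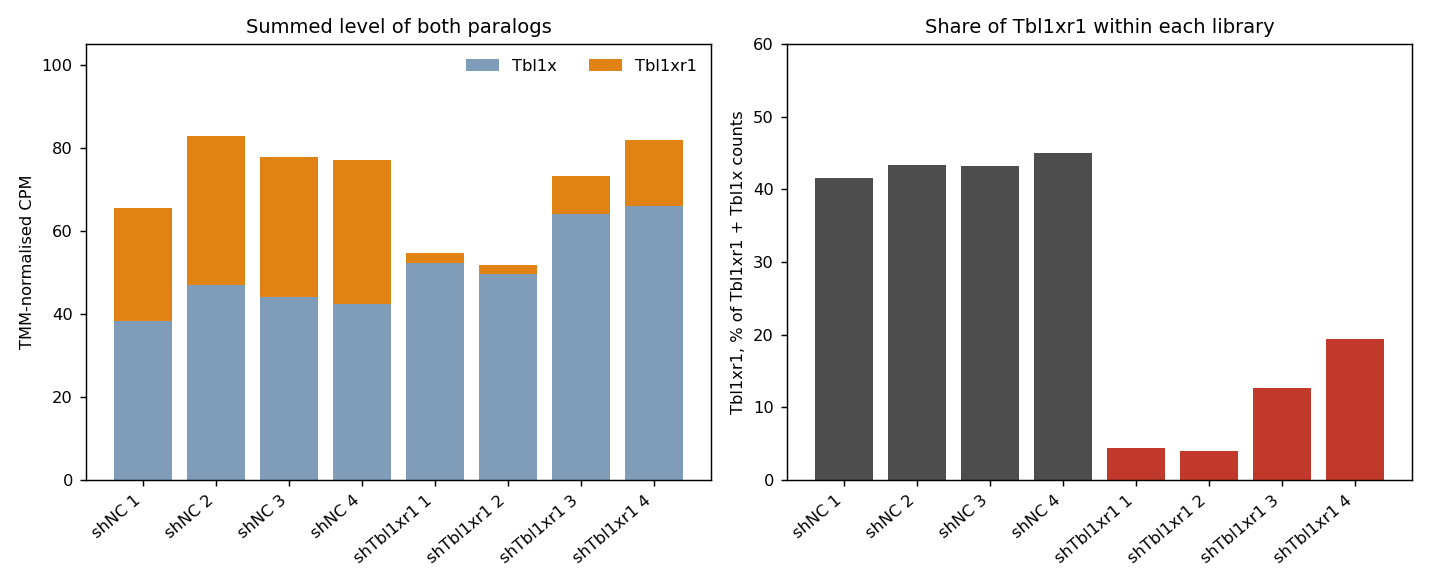
Left, stacked bars of the Tbl1x and Tbl1xr1 levels in TMM-normalised CPM in each of the 8 libraries, and right, bars of the percentage of paralog fragments assigned to Tbl1xr1. The shNC shares lie between 41.5% and 44.9% and the shTbl1xr1 shares between 4% and 19.5%, with the deeper shTbl1xr1 3 and 4 at the top of the Tbl1x levels.

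Ncor1, the scaffold of the complex, did not pass the threshold, and its groups overlapped on every scale. It lies on the minus strand of chromosome 11 from 62316426 to 62458541 (ENSMUSG00000018501.17). It had 50.4, 70.6, 74.8 and 75.9 CPM in shNC 1 to 4 and 36.0, 44.3, 57.4 and 78.4 CPM in shTbl1xr1 1 to 4 (68.0 ± 11.9 against 54.1 ± 18.5, SD, n = 4 each). The shallow libraries had the lowest values, below every shNC library, and shTbl1xr1 4 had the highest of all 8. The log2 fold change was -0.33 (SE 0.25, 95% interval -0.88 to 0.23; adjusted p = 0.577 by edgeR with Benjamini-Hochberg adjustment; exact permutation p = 0.257). In the shallow libraries alone it was -0.76 (adjusted p = 0.011, in the fit that called 42.6% of genes), and without them it was -0.00336 (adjusted p = 0.997). The low Ncor1 values thus lay in the libraries that also had the higher mitochondrial share and the lower macrophage, stellate and endothelial marker sums. Ttc19 overlaps 12026 bases of Ncor1 on the opposite strand, with a mean of 358.5 counts in shNC and 323.5 in shTbl1xr1. This overlap was taken over whole genes, introns included, and the strand setting is not given in the sources used here. Of 13452 windows of 50 bases in Ncor1 transcripts, 204 (1.52%) also occurred in another gene. Whether any Ttc19 fragments were counted for Ncor1 was not tested.

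Hdac3, the deacetylase, resembled Tbl1x on the CPM scale, with higher values in the treated libraries and no pass of the threshold. It lies on the minus strand of chromosome 18 from 37935844 to 37955016 (ENSMUSG00000024454.16). Its levels were 23.3, 25.9, 24.4 and 26.7 CPM in shNC 1 to 4 and 42.3, 31.5, 32.7 and 29.4 CPM in shTbl1xr1 1 to 4 (25.1 ± 1.52 against 34.0 ± 5.71, SD, n = 4 each). Every treated library was above every control, as for 3.88% of all genes tested in this direction, and shTbl1xr1 1 stood highest. The log2 fold change was 0.44 (SE 0.15, 95% interval 0.09 to 0.78), with an adjusted p of 0.383 by edgeR with Benjamini-Hochberg adjustment, an unadjusted p of 0.0183 and an exact permutation p of 0.0286. Of all genes tested, 7.9% were higher with an unadjusted edgeR p below 0.05. Scaled by library size alone, Hdac3 had 25.1 to 30.3 CPM in shNC and 31.0, 21.3, 37.7 and 32.3 in shTbl1xr1 1 to 4, with overlap. In TPM, Hdac3 had 15.5, 18.9, 18.5 and 20.4 in shNC and 14.9, 10.1, 24.8 and 22.2 in shTbl1xr1. The TPM means, 18.3 ± 2.07 and 18.02 ± 6.75, were close, with the shallow libraries below and the deeper ones above all controls (exact permutation p = 0.771). This is the order seen for Tbl1x. Within a library, the log2 ratio of Tbl1x to Hdac3 fragments was 0.67 to 0.86 in shNC and 0.31, 0.66, 0.97 and 1.16 in shTbl1xr1 1 to 4. The means were equal (0.77 ± 0.09 and 0.77 ± 0.37, SD, n = 4 each), but the shallow pair lay below the control range and the deeper pair above it.

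Gps2, the smallest of the 5 genes and a subunit that binds the scaffold and the TBL1 proteins, did not pass the threshold and had groups that overlapped. It lies on the plus strand of chromosome 11 from 69913888 to 69916591 (ENSMUSG00000023170.14). It had 9.08, 8.26, 7.90 and 7.42 CPM in shNC 1 to 4 and 10.8, 10.4, 8.76 and 7.09 CPM in shTbl1xr1 1 to 4 (8.17 ± 0.70 against 9.24 ± 1.68, SD, n = 4 each). The shallow libraries were the highest and shTbl1xr1 4 the lowest. The log2 fold change was 0.17 (SE 0.18, 95% interval -0.24 to 0.58; adjusted p = 0.698 by edgeR with Benjamini-Hochberg adjustment; exact permutation p = 0.314). Its direction turned with the scale: in TPM it had 11.2 to 12.4 in shNC and 7.58, 6.12, 13.7 and 11.02 in shTbl1xr1, with means of 12.1 ± 0.61 and 9.60 ± 3.40. The shallow libraries held 86 and 75 Gps2 fragments against 218 to 253 in shNC, fewer than for any of the other genes but Tbl1xr1.

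**Figure D2:**
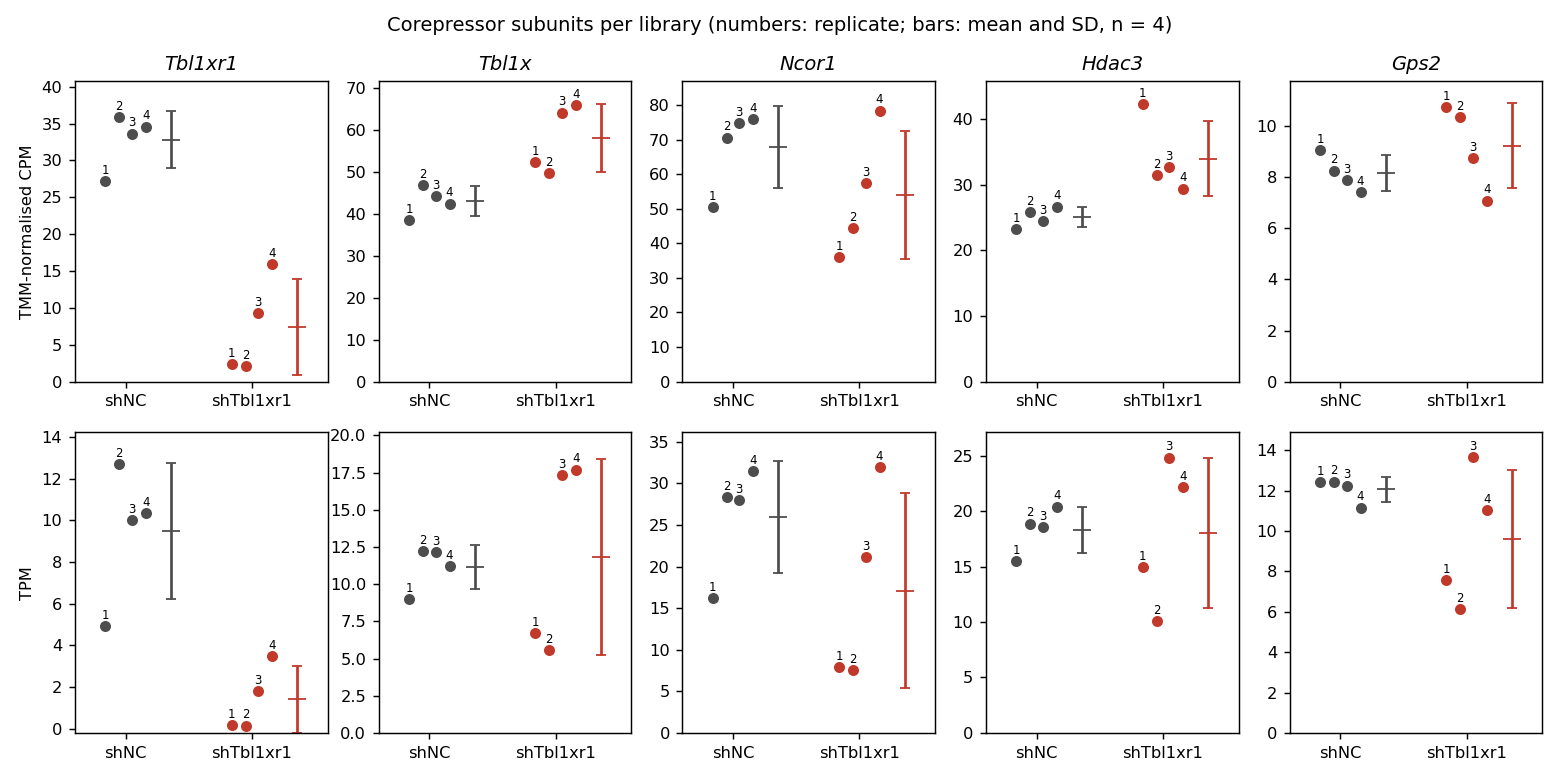
Levels of the 5 genes in each library (points, numbered by replicate), in TMM-normalised CPM above and the deposited TPM below, with the mean and SD of each group as bars. In CPM the groups are apart for Tbl1xr1 (lower), Tbl1x and Hdac3 (higher), and in TPM they are apart for Tbl1xr1, while shTbl1xr1 1 and 2 lie low for the other genes.

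Per length, the subunits were expressed within a narrow range in control liver. The mean TPM in shNC ran from Ncor1 (25.99) through Hdac3 (18.3), Gps2 (12.1) and Tbl1x (11.2) to Tbl1xr1 (9.49). Ncor1 was above Hdac3 in each of the 4 shNC libraries and Hdac3 above Gps2 in each, while Gps2 and Tbl1x, and Tbl1x and Tbl1xr1, changed places between libraries. In shTbl1xr1 the order of mean TPM was Hdac3 (18.02), Ncor1 (17.1), Tbl1x (11.8), Gps2 (9.60) and Tbl1xr1 (1.41). Tbl1xr1 was last in all 4 treated libraries. Hdac3 was above Ncor1 in shTbl1xr1 1, 2 and 3 and below it in shTbl1xr1 4.

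Ratios taken within a library show which subunits moved relative to which, free of any scaling between libraries. Of the 10 pairs, the 4 that include Tbl1xr1 had groups that did not overlap, both in TPM and in fragment counts. These 4 share a gene whose groups were already apart by itself, and no share over pairs of all genes was taken. Relative to Ncor1, Hdac3, Gps2 and Tbl1x, the mean log2 TPM ratio of Tbl1xr1 was lower in shTbl1xr1 by differences of -2.95, -3.68, -3.38 and -3.69. Of the other 6 pairs, 0 were apart in TPM and 1 in counts. That pair was Tbl1x to Ncor1, with log2 count ratios of -0.39, -0.59, -0.76 and -0.84 in shNC 1 to 4 and 0.54, 0.17, 0.16 and -0.25 in shTbl1xr1 1 to 4. There were fewer Tbl1x than Ncor1 fragments in every control, and more in 3 of the 4 treated libraries. The other 5 pairs overlapped in both units.

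The position of each gene among all genes tested is a further view that uses no scaling factor. By TPM rank, Tbl1x had more than 58.2% to 61.9% of the genes in shNC and more than 62.5% to 69.4% in shTbl1xr1, and Hdac3 more than 69.7% to 72.4% and 72.5% to 75.8%. For Tbl1xr1, Tbl1x and Hdac3 the groups did not overlap in rank, against 7.33% of all genes tested (3.77% higher and 3.56% lower). Hdac3 and Tbl1x were thus apart by rank and by TMM CPM, but not by TPM or by library-size CPM. The scalings also differed in where they placed the transcriptome as a whole. The median log2 difference of all genes tested was 0.01 with TMM, -0.27 with library size alone and -0.34 in log2(TPM + 1). Relative to that median, Tbl1x stood at 0.45 with library size alone and 0.26 in TPM, and Hdac3 at 0.39 and 0.24. Tbl1xr1 stood at -1.93 and -1.96, Ncor1 at -0.28 and -0.44, and Gps2 at 0.11 and -0.02.

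Other models of the same counts differed in whether they called Tbl1xr1. DESeq2 called it lower, with a log2 fold change of -2.13 (adjusted p = 0.00879, among 2.14% of genes called, 1.8% higher and 0.338% lower). A fit with 1 surrogate variable, an estimated axis of variation whose overlap with the groups was not tested, also called it, at -1.67 (adjusted p = 0.00739, among 0.302% of genes called, 0.273% higher and 0.0288% lower). Neither called any of the other 4. For Tbl1x they gave 0.45 (adjusted p = 0.0775) and 0.57 (adjusted p = 0.0676), and for Hdac3 0.45 (adjusted p = 0.157) and 0.34 (adjusted p = 0.298). Ncor1 had -0.32 with DESeq2 and -0.0467 with the surrogate variable, and Gps2 had 0.17 and -0.0116. With the shallow libraries alone against shNC, Hdac3 had 0.55 (adjusted p = 0.0138), past the threshold together with 42.6% of genes.

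**Figure D3:**
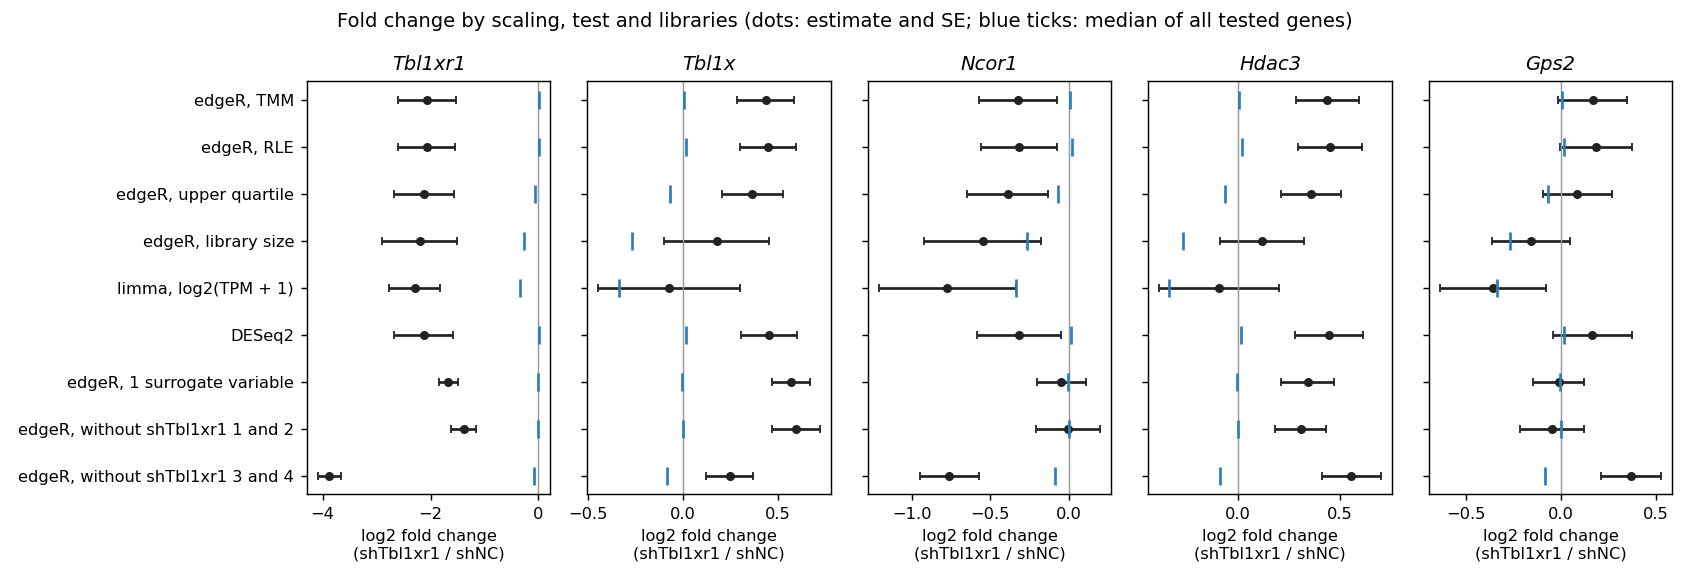
Log2 fold change of each of the 5 genes, shTbl1xr1 against shNC, under 9 choices of scaling, test and libraries, with SE bars and blue ticks at the median of all genes tested. Tbl1xr1 is below 0 throughout, between -1.38 without the shallow libraries and -3.88 with them alone, while Tbl1x and Hdac3 cross 0 in the TPM fit.

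The genes with the profile nearest to Tbl1xr1 over the 8 libraries were Slc10a5, a transporter of the bile acid carrier family, Irs1, an adaptor of the insulin receptor, Hgf, the hepatocyte growth factor, Ccp110, a centriole protein, and Fam208b. Nearness was the root mean square difference of log2 CPM, each gene taken relative to its shNC mean. It was 0.672, 0.732, 0.791, 0.826 and 0.837 for these genes, against a median of 2.08 over the 9216 genes with a mean of at least 5 CPM that could be named. Slc10a5 had 20.02, 39.8, 38.4 and 34.9 CPM in shNC 1 to 4 and 2.00, 1.52, 20.9 and 39.1 CPM in shTbl1xr1 1 to 4. It was low in the shallow libraries and at the control level in the deeper ones, and its groups overlapped, as did those of the other 4. Hgf, which is made by non-parenchymal cells of the liver, had 8.04 to 16.2 CPM in shNC and 1.63, 1.38, 10.5 and 6.99 CPM in shTbl1xr1. Tbl1xr1 itself was below all controls in the deeper libraries too.

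Genes that work with or downstream of the complex were read from 9 lists, and none of their genes passed the adjusted threshold in edgeR. Among 15 corepressor partners, 4 had positive and 11 negative log2 fold changes, with a median of -0.11 beside 0.01 for all genes tested, and no gene had groups apart. Without the shallow libraries the median was 0.13. The smallest p-values there belonged to Kdm4a, a histone demethylase (-0.33, adjusted p = 0.522), and Ube2d1, a ubiquitin-conjugating enzyme (0.31, adjusted p = 0.499). Without the shallow libraries they had -0.16 and 0.13. Of 25 nuclear receptors that can recruit the complex, 24 were tested, and 10 had positive and 14 negative values, with a median of -0.08 that turned to 0.04 without the shallow libraries. The retinoid receptor Rxrg had 2.11 ± 0.57 and 3.73 ± 1.18 CPM (SD, n = 4 each; adjusted p = 0.408) and Pparg, a lipid-sensing receptor, had 4.88 ± 0.76 and 7.12 ± 1.96 CPM (adjusted p = 0.426), and the groups of both overlapped. Their log2 fold changes of 0.79 and 0.53 became 0.37 and 0.20 without the shallow libraries.

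Genes repressed by the REV-ERB receptors, which act through NCoR and HDAC3, were 2 positive and 5 negative of 7, with a median log2 fold change of -0.54. Clock, a core activator of the circadian oscillator, had 45.2, 60.2, 57.1 and 58.5 CPM in shNC 1 to 4 and 31.2, 38.9, 37.9 and 43.4 CPM in shTbl1xr1 1 to 4. Its groups did not overlap, as for 1 of the 7 genes (14.3%), beside 7.25% of all genes tested (3.37% lower). The log2 fold change of Clock was -0.54 (SE 0.16, adjusted p = 0.327 by edgeR with Benjamini-Hochberg adjustment). Arntl, the partner of Clock, had 14.2 to 23.6 CPM in shNC and 10.4, 4.14, 16.04 and 3.72 CPM in shTbl1xr1, with overlap (log2 fold change -1.12, adjusted p = 0.406). The labels give no hour of collection.

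Targets of LXR, the oxysterol receptor, had the highest median of the 9 lists, 0.51, with 6 of 9 genes positive, and it was 0.50 without the shallow libraries and 0.21 by library size alone, beside -0.27 for all genes. Abcg8, a subunit of the sterol exporter, had 31.4, 24.5, 18.8 and 32.9 CPM in shNC 1 to 4 and 49.9, 57.6, 63.7 and 72.4 CPM in shTbl1xr1 1 to 4. It was higher in every treated library (log2 fold change 1.18, SE 0.21), with an adjusted p of 0.127 by edgeR with Benjamini-Hochberg adjustment. Lpcat3, which remodels phospholipids, had 39.5 ± 4.20 and 67.5 ± 6.21 CPM (SD, n = 4 each; log2 fold change 0.77, adjusted p = 0.150). Scd1, the main desaturase of fatty acids, which was chosen after its values were seen, had 399 to 879 CPM in shNC and 1201 to 2581 CPM in shTbl1xr1 (log2 fold change 1.65, adjusted p = 0.180). These 3 of 9 genes (33.3%) had groups that did not overlap, all higher, beside 7.25% of all genes tested (3.88% higher). DESeq2 called all 3 higher, as it did 1.8% of all genes. Mylip, Pltp and Abcg1 were negative, with log2 fold changes of -0.63, -0.36 and -0.15 and groups that overlapped.

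Targets of PPARA, the fatty acid receptor, had 7 positive and 13 negative values of 20, with a median of -0.26. Acadm, a dehydrogenase of fatty acid oxidation, had 312 to 353 CPM in shNC and 193 to 212 CPM in shTbl1xr1, with little spread in either group (log2 fold change -0.71, adjusted p = 0.196). Hadha, of the same pathway as Acadm and chosen after its values were seen, also had groups apart (418 ± 42.7 against 320.4 ± 32.1 CPM, SD, n = 4 each). In all, 2 of the 20 PPARA targets (10%) had groups apart, both lower, beside 7.25% of all genes tested (3.37% lower). Thyroid hormone targets had 4 positive and 3 negative values (median 0.13): Thrsp, a regulator of lipid synthesis, had 9.69 to 24.0 CPM in shNC and 86.1, 68.2, 21.9 and 127 CPM in shTbl1xr1 1 to 4 (adjusted p = 0.217), and Me1, malic enzyme, had 85.1 ± 12.5 and 93.3 ± 20.1 CPM, with a log2 fold change of 0.13 that turned to -0.14 without the shallow libraries. Of 6 retinoic acid receptor targets 5 were tested, with 2 positive and 3 negative values and a median of -0.00314, which was 0.02 without the shallow libraries. On the log2 scale Cyp26b1, which degrades retinoic acid, differed by -1.19 (SE 0.92) and Dhrs3, a retinal reductase, by 0.57 (SE 0.25). Without the shallow libraries these values were -0.36 and 0.0873: Dhrs3 had 117, 115.9, 58.5 and 70.7 CPM in shTbl1xr1 1 to 4, against 48.2 to 68.8 CPM in shNC.

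Beta-catenin and NF-kB are further partners of the TBL1 proteins. Of 17 beta-catenin targets 9 were positive and 8 negative, with a median of 0.11 that turned to -0.33 without the shallow libraries. Ccnd1, cyclin D1, had 229, 198, 146 and 196 CPM in shNC 1 to 4 and 68.7, 49.7, 107 and 94.6 CPM in shTbl1xr1 1 to 4, with groups apart (log2 fold change -1.26, SE 0.26, adjusted p = 0.180 by edgeR with Benjamini-Hochberg adjustment). Axin2, a feedback inhibitor of the pathway chosen after its values were seen, was also apart, with 7.26 ± 0.84 and 4.63 ± 1.08 CPM (SD, n = 4 each). In all, 2 of the 17 beta-catenin targets (11.8%) had groups apart, both lower, beside 7.25% of all genes tested (3.37% lower). Rhbg, an ammonium transporter, had 8.33 ± 2.58 and 21.9 ± 10.7 CPM, with overlap (adjusted p = 0.320). Rhbg had 31.4, 30.2, 9.40 and 16.5 CPM in shTbl1xr1 1 to 4, and its log2 fold change of 1.38 became 0.64 without the shallow pair. Of 13 NF-kB targets 6 were positive and 7 negative, with a median of -0.06 that became 0.43 without the shallow libraries. The chemokine Cxcl1 had 18.3 ± 11.3 and 5.69 ± 2.24 CPM (adjusted p = 0.332) and Birc3, an inhibitor of apoptosis, 4.43 ± 0.38 and 5.78 ± 1.81 CPM (adjusted p = 0.499), both with overlap. The log2 fold change of Birc3 was 0.41, and 0.70 without the shallow libraries. DESeq2 called 8 genes on these lists: Thrsp, Abcg8, Lpcat3, Scd1 and Rhbg higher, and Acadm, Ccnd1 and Cxcl1 lower, beside 2.14% of all genes (1.8% higher and 0.338% lower). The fit with 1 surrogate variable called Abcg8 and Scd1 higher and Acadm lower, beside 0.302% of all genes (0.273% higher and 0.0288% lower).

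**Figure D4:**
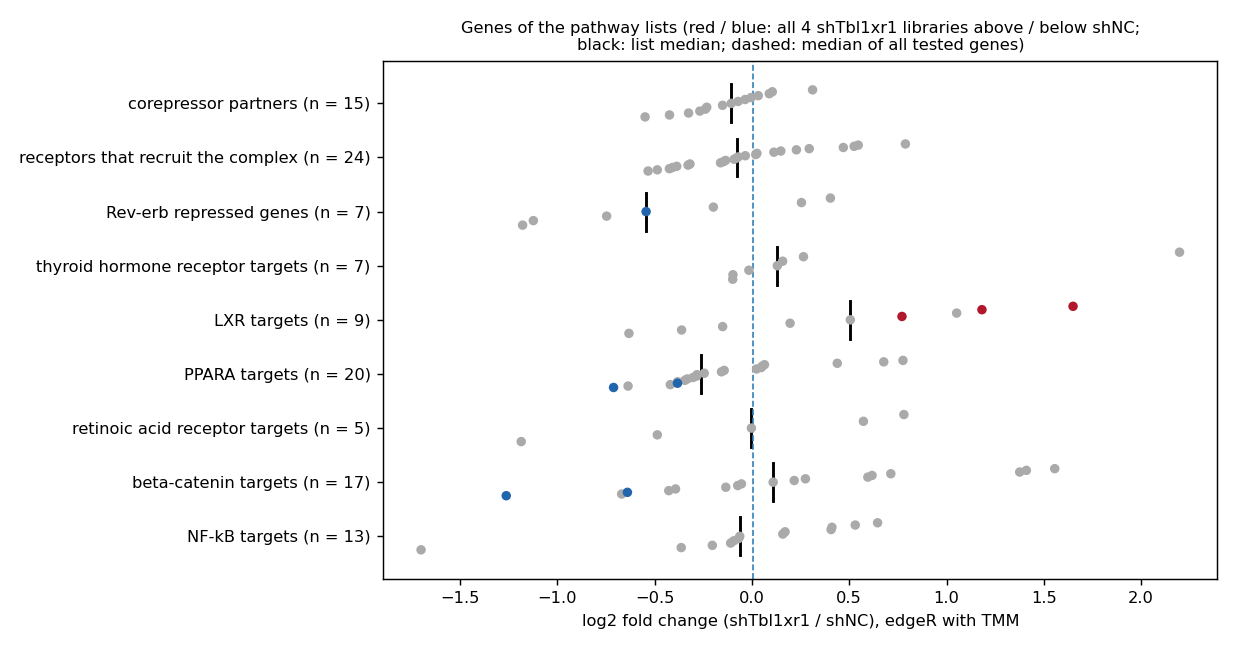
Log2 fold change of each tested gene on the 9 lists, in shTbl1xr1 against shNC, with list medians as black lines, the median of all genes as a dashed line, and genes with groups apart in red (higher) or blue (lower). The LXR targets have the highest median (0.51) and the genes repressed by REV-ERB the lowest (-0.54), and no gene passed the adjusted threshold in edgeR.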

How the data were processed

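Whole-liver RNA was measured in 8 libraries, 4 of shNC and 4 of shTbl1xr1. RNA was isolated with TRIzol and libraries were made with an MGIEasy kit, per the labels' protocols. Per the file headers, the authors deposited for each library an expected count, a TPM and a length per gene; the FPKM column was not used. STAR, RSEM, DESeq2 1.30.1 and mm10 are named in the submitters' processing notes. No annotation release, strand setting or read length is given in the sources used here. GENCODE mouse release 21 (GRCm38) supplied symbols and coordinates; 55141 of 55401 identifiers had a symbol, and 54349 matched with their version. Coding sequences were cut from the transcript sequences of that release at the annotated coding positions and aligned with Biopython 1.88.

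Expected counts were rounded to whole numbers. filterByExpr kept 13908 genes, and edgeR 4.0.16 (R 4.3.3) gave TMM scaling and the robust quasi-likelihood F test without covariates, with Benjamini-Hochberg adjustment over all genes tested and a threshold of 0.05. Permutation tests were exact and two-sided over 70 arrangements, on log2(CPM + 1), log2(TPM + 1) or length. Groups are called apart, or not overlapping, when every library of one group lies above every library of the other. Depth was 10728583 to 36720879 counts per library, and intervals on counts cover counting error only. limma 3.58.1, DESeq2 1.42.0 and sva 3.50.0 served as alternatives, beside other scalings, filters and choices of libraries. The fit was tested on simulated data.

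The genes, the 9 pathway lists, the 8 marker lists and the alternatives were chosen with earlier results of these data known. A further subunit and 1 listed gene are not reported here. Named genes were the 5 subunits, up to 2 genes per list and direction past the threshold or otherwise the 2 with the smallest p, and the 5 genes with profiles nearest to Tbl1xr1.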

Additional observations from a re-analysis of the deposited data

Results flagged for a closer look

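The Gps2 TPM of shNC 4, 11.16, stood apart from the other shNC libraries, which lay between 12.24 and 12.44. Its gap to the nearest of them was 0.844 of the range of the group, more than is usual at the 95% level for 4 values. Of 30 groups examined 1 had such a value, and chance gives about 1 in 20.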

How the results depend on the processing

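Tbl1xr1 was lower under every alternative run. It passed the adjusted threshold with DESeq2 (-2.13), with 1 surrogate variable (-1.67) and with the shallow shTbl1xr1 pair alone (-3.88), and its difference in log2(CPM + 1), -2.37, was -1.35 in the deeper libraries. Tbl1x and Hdac3 turned to -0.0729 and -0.0934 in log2(TPM + 1) and to -0.0941 and -0.103 in log2(TPM + 0.1). In the shallow pair alone Ncor1 had -0.76 and Hdac3 0.55, both past the threshold. Gps2 turned to -0.16 with library size alone, -0.36 and -0.39 in the TPM fits, -0.0116 with a surrogate variable and -0.0462 in the deeper libraries. In log2(CPM + 1) the difference of Tbl1x was 0.34 with upper quartile scaling (exact permutation p = 0.0571, unadjusted). It was 0.0905 with library size alone (exact permutation p = 0.8, unadjusted) and 0.59 in the deeper libraries. The difference of Hdac3 was 0.0883 with library size alone, and that of Ncor1 was 0.000666 in the deeper libraries. For Gps2 the difference was -0.15 with library size alone and -0.0417 in the deeper libraries. The cause of these changes was not tested.

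The 7 genes called became 4 with library size alone, 13 without a filter, 291 with DESeq2, 33 with limma-voom, 1 and 2 in the TPM fits, 42 with a surrogate variable and 6094 with the shallow pair alone. Leaving out each library in turn gave 0 to 34 calls in edgeR: 0 without shNC 1, 2 or 4 (where an unadjusted p under 0.05 was reached by 844, 631 and 644 genes upward and 372, 297 and 292 downward), 2 without shNC 3 or shTbl1xr1 1, 3 without shTbl1xr1 2 or 3, and 34 without shTbl1xr1 4. Over the same exclusions the log2 fold change was -2.71 to -1.79 for Tbl1xr1, 0.37 to 0.50 for Tbl1x, -0.56 to -0.17 for Ncor1, 0.31 to 0.50 for Hdac3 and 0.08 to 0.28 for Gps2. The length of Hdac3, 7.80 bases longer in shTbl1xr1, differed by -5.78 to 23.3 bases, at -1.44 without shTbl1xr1 1 and -5.78 without shNC 4.

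With the replicate number as a block, 5 genes were called and Tbl1xr1 had -2.47 (adjusted p = 0.217). Same-numbered libraries correlated at 0.379, -0.0737, 0.305 and 0.12 after group means were removed, and 3 of 4 shNC libraries correlated best with their own number. This is a hint of pairing from the data, but the labels state none and not every correlation exceeded 0.1, which was required for the numbers to be taken as pairs.

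Depth limits Tbl1xr1 and Gps2 most, with 15 and 19 and with 75 and 86 fragments in the shallow libraries. Both shallow libraries are shTbl1xr1, so depth and hairpin cannot be told apart there.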
